A study of Mus musculus with 12 samples.

Results

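The genes that license DNA for replication were followed in mouse blastocysts in which p38-MAPK was inhibited. They are 10 of the 34245 genes in the table, taken by symbol as Mcm2, Mcm3, Mcm4, Mcm5, Mcm6, Mcm7, Cdc6, Cdt1, Pcna and Ccne1, and all of them passed the limit on low values in every comparison. Each of the 12 mRNA-Seq libraries came from a pool of 30 embryos, with 2 replicate pools in each of 6 groups. P-values rest on the spread between pools of the single gene, which limma combined with its trend of variance with expression over all genes. In the fits of p38-MAPKi against control at 4 h and of control 7 h against 4 h, limma took the variance wholly from that trend. These 2 fits did not use the replicate spread of the single gene. Embryos from F1 (C57Bl6 x CBA/W) mice were taken at the 2-cell stage and cultured in KSOM+AA. From E3.5 the blastocysts were kept with either the DMSO vehicle (control) or SB220025 at 20 µM, which blocks p38-MAPK (p38-MAPKi), for 4, 7 or 10 h. A pool holds whole embryos, so trophectoderm, epiblast and primitive endoderm cells are mixed, and fewer cells of a type cannot be told apart from less RNA per cell.

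Licensing loads the replicative helicase onto origins before S phase. The origin recognition complex binds the origin, Cdc6 and Cdt1 join it, and together they place the ring made of Mcm2 to Mcm7 around the DNA. Cyclin E, encoded by Ccne1, activates Cdk2 at the entry into S phase, and the sliding clamp Pcna then tethers the DNA polymerases and helps to mark Cdt1 for destruction. Cleavage-stage and blastocyst cells divide often, and licensing genes are classic targets of the E2F transcription factors.

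Depth lay between 11242313 and 24457311 reads per library, as recovered from the table. The library p38-MAPKi replicate 1 of 7 h was the shallowest, with a read in 14001 genes against 16343 to 17645 in the other libraries. A licensing gene had at least 669 reads in every library (Ccne1) and up to 9391 (Mcm5), and at 669 reads counting error alone gives an SE of 0.056 on the log2 scale. All 9 trophectoderm and all 8 epiblast markers reached 1 RPKM (read density per transcript length, corrected for sequencing depth) in every library, as did 5 of 7 primitive endoderm markers, while Sox7 and Foxa2 stayed below it. Of 10 markers of follicle cells, oocytes and blood, 0 reached 1 RPKM in every library and their summed level was 2.54 to 6.74 RPKM. Of the blood markers, Hbb-bt had no read in any of the 12 libraries, while Hba-a1 had none in 3 libraries and reached at most 1.01 RPKM.

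All 10 licensing genes were well expressed. Mcm5 had the highest level, at a geometric mean of 86.4 RPKM over the 12 libraries, and Cdc6 the lowest, at 20.5 RPKM. These means exceeded those of 93.9% and 69.8% of the 9388 genes with at least 1 RPKM in every library. Levels per length of transcript fell into steps. Mcm5 lay above Mcm4 in 12 of 12 libraries. Mcm4 (66.2 RPKM) and Cdt1 (65.7 RPKM) were not separated, since Mcm4 was the higher in 8 of 12. Cdt1 exceeded Pcna in 12 of 12. Pcna (54.3 RPKM), Mcm3 (52.0 RPKM), Mcm6 (51.5 RPKM) and Mcm7 (51.3 RPKM) followed with gaps of 0.064, 0.012 and 0.007 log2 units from each to the next. Mcm7 was above Mcm2 in 12 of 12, and Mcm2 above Ccne1 (23.6 RPKM) in 11 of 12. Ccne1 and Cdc6 changed places between libraries.

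The helicase subunits enter the ring as a single copy each, but their RPKM were not equal. RPKM divides the reads by the summed exon length of the gene model, which is 3589 bases for Mcm4 and 6956 for Mcm2. How much of the differences between subunits comes from this length was not tested. Mcm5 made up 25.0% ± 0.667 (SD over 12 libraries) of the summed RPKM of the 6 subunits and Mcm2 11.0% ± 0.825. Mcm4 gave 19.2% ± 1.54, while Mcm3, Mcm6 and Mcm7 each stayed between 13.3% and 16.5% in all libraries. The highest RPKM of a subunit was 2.08 to 2.65 times the lowest within a library. The sum itself lay between 290.7 RPKM in p38-MAPKi replicate 1 of 7 h and 397.6 RPKM in control replicate 2 of 7 h.

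Levels moved little over the experiment. The highest library exceeded the lowest by 1.28-fold for Cdt1, the steadiest member, and by 1.76-fold for Ccne1, the most variable. The SD of log2 RPKM over the 12 libraries had a median of 0.137 over the members against 0.256 over the 9388 genes, and 9 of 10 members were below the latter. The members are abundant, and over the 2839 genes with a mean at or above that of Cdc6 the median SD was 0.211. Replicate pools differed by a median SD of 0.121 in the members and 0.186 in all genes.

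**Figure D1:**
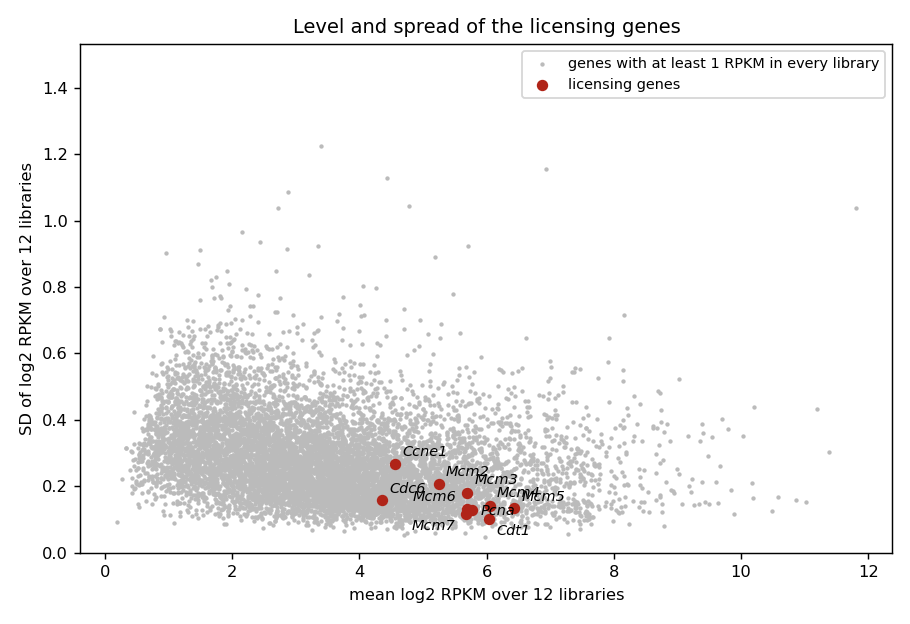
Mean log2 RPKM over 12 libraries (x) against the SD of log2 RPKM over the same libraries (y). Grey points are the 9388 genes with at least 1 RPKM in every library and red points are the 10 licensing genes, which sit at high levels with SDs from 0.102 (Cdt1) to 0.269 (Ccne1).

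Over the 12 libraries the members varied in part together. The correlation of log2 levels was above 0 for 36 of 45 pairs, with a median r of 0.382, and for the 15 pairs of helicase subunits the median was 0.618. The highest was that of Mcm3 and Mcm5 (r = 0.907), and the lowest that of Mcm7 and Pcna (r = -0.404). The points of these correlations share library depth and treatment groups. The mean standardised profile of the 10 genes was lowest in p38-MAPKi replicate 1 of 7 h (-1.36) and highest in control replicate 2 of 7 h (1.04). Mcm3 followed this mean most closely (r = 0.944), and Pcna least (r = 0.0935), with each member's r raised by its own part in the mean. Outside the members, Mreg (r = 0.906), Atf1 (r = 0.906), Tmem39a (r = 0.901), Gfpt1 (r = 0.90) and Gart (r = 0.899) had the profiles most like it among the 9388 genes.

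Many, but not all, of the promoters of these genes hold the same short words, and promoter sequence was not used to choose the genes. RefSeq promoters (GRCm38.p6, 250 bases before the start of the gene to 50 after it) were found for 9 of 10 members, and were searched on both strands for the E2F words TTTGGCGC, TTTCCCGC, TTTCGCGC and TTTGCCGC, for CCAAT, and for TATAAA. An E2F word was present for 6 of 9 members, namely Mcm3, Mcm5, Mcm6, Mcm7, Cdc6 and Cdt1. It was present in 2.26% of all 32851 promoters, for 5.13% of the 7289 genes with a promoter and at least 1 RPKM in every library, and for 23 of 86 other replication and cell cycle genes. CCAAT was found for 6 of 9 members, in 37.4% of all promoters, for 43.5% of the 7289 genes and for 49 of the 86. TATAAA was found for 0 of 9, in 13.6% of all promoters, for 7.56% of the 7289 genes and for 5 of the 86. The words were chosen with the sequences at hand, and a match is a run of letters, not a shown binding site. Mcm3 (chr1:20820263-20820562, minus strand) has 2 E2F words after its start, beginning 19 and 38 bases from it. In Mcm5 (chr8:75109259-75109558, plus strand) and Mcm6 (chr1:128359656-128359955, minus strand) words on opposite strands overlap in a run of 12 bases, beginning at -153 in Mcm5 and at -110 in Mcm6, counted from the start at 0, and Mcm6 has another word at -47. Cdt1 (chr8:122567765-122568064, plus strand) has 1 word, and Mcm2 (chr6:88898731-88899030, minus strand) holds none of them in this window. Not shown are Mcm7, with words at -165 and 16, and Cdc6, with 1 word at -138. These 5 are shown 5′ to 3′, with E2F words in capitals, as examples of words after the start, overlapping words, a single word and none.
Mcm3: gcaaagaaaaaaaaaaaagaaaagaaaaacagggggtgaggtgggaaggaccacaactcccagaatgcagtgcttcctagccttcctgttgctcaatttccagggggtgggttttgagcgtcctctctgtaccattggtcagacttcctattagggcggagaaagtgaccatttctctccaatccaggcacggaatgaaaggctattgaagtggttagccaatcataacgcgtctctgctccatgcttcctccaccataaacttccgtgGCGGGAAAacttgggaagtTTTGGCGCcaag
Mcm5: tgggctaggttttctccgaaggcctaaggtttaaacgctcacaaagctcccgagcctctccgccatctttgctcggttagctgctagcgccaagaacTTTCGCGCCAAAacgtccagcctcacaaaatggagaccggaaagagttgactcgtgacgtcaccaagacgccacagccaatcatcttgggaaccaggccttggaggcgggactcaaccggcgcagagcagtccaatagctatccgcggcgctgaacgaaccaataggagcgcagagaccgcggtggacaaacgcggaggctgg
Mcm6: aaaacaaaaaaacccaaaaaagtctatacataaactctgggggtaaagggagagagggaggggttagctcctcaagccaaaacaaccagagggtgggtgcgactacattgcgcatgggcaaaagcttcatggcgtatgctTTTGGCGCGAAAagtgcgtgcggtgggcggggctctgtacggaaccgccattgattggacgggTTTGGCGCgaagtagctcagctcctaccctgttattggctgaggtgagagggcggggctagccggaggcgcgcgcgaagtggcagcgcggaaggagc
Cdt1: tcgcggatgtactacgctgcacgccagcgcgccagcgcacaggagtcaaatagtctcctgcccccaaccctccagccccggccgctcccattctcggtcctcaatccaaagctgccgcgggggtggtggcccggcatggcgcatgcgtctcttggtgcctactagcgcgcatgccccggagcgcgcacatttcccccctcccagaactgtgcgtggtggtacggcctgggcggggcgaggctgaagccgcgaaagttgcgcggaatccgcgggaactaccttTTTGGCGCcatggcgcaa
Mcm2: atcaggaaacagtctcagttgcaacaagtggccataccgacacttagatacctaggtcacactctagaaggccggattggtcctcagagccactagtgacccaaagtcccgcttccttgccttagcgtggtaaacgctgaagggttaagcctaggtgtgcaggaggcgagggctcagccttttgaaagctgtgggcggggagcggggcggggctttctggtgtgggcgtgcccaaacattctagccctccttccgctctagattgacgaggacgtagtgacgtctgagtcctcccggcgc

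In control blastocysts no licensing gene was called as changed between time points. From 4 to 7 h, 9 of 10 members had a positive difference, with a median log2 fold change of 0.09 against 0.11 over all genes tested. From 7 to 10 h, 8 of 10 were negative, with a median of -0.11 against 0.02. From 4 to 10 h the median was -0.004 against 0.14. In limma's test with Benjamini-Hochberg adjustment, 0 of 10 members passed an adjusted p of 0.05 in each of these comparisons, where 0.492%, 0.0552% and 0.471% of all genes passed. At an unadjusted p of 0.05 the members again numbered 0 in each, against 4.79%, 3.79% and 15.2% of all genes. Voom on the recovered reads also called 0 members.

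Ccne1 had the largest control differences. It measured 21.9 and 23.1 RPKM at 4 h, 26.8 and 27.9 RPKM at 7 h, and 24.6 and 18.1 RPKM at 10 h. Both libraries of 7 h were thus above both of 4 h and both of 10 h, but the 10 h replicates were far apart. The log2 fold change was 0.28 from 4 to 7 h (SE 0.185, 95% interval -0.08 to 0.65) and -0.38 from 7 to 10 h (SE 0.161, interval -0.76 to 0.005), and neither was called.

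From 4 to 7 h, 3 of 10 members (Mcm2, Mcm3 and Ccne1) had both 7 h libraries above both 4 h libraries, as did 25.3% of all genes, and 0 were below, against 3.69%. From 7 to 10 h, 6 of 10 members (Mcm2, Mcm4, Mcm5, Cdc6, Cdt1 and Ccne1) had both later libraries below, against 12.4% of all genes, and 0 were above, against 18.3%. From 4 to 10 h only Cdc6 was below, against 8.06% of all genes, and 0 were above, against 42.3%. The first 2 of these comparisons share the control libraries of 7 h.

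**Figure D2:**
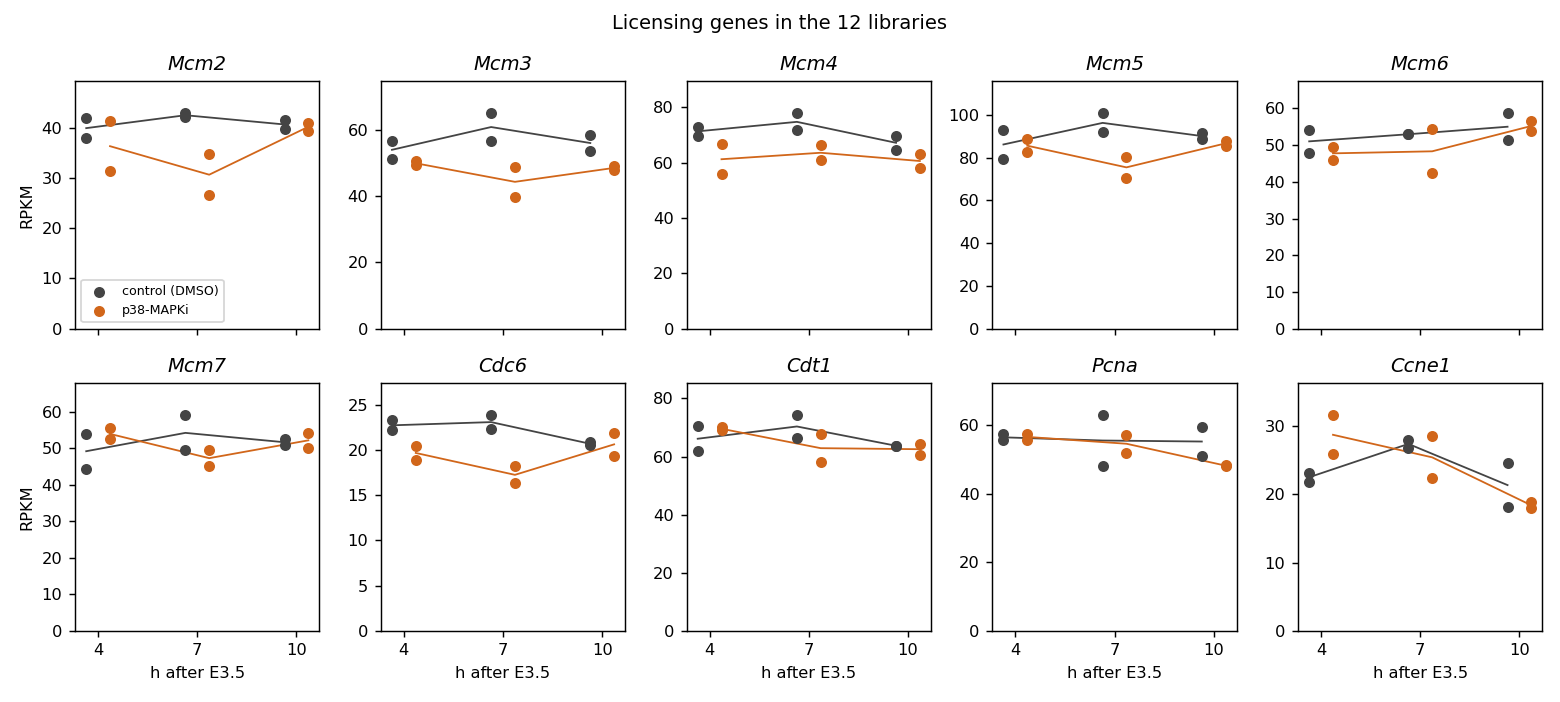
RPKM of each licensing gene (y, from 0, with its own scale in each panel) at 4, 7 and 10 h after E3.5 (x). Points are single libraries, grey for control and orange for p38-MAPKi, and lines join the means of 2 replicates. Mcm3 and Mcm4 are lower in both p38-MAPKi libraries than in both control libraries at every time point, and Mcm2 only at 7 h.

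After 4 h of p38-MAPKi no licensing gene was called. The median log2 fold change of the 10 members was -0.05, against 0.07 over all genes tested, and 4 were positive and 6 negative. In limma 0 of 10 were called (adjusted p under 0.05), against 0.909% of all genes, and 0 had an unadjusted p under 0.05, against 9.42%. Voom called 0 as well. Among the helicase genes Mcm4 had a difference of -0.23 (interval -0.62 to 0.17), the same as its difference at 7 h to 2 decimals, and Mcm2 of -0.15. Ccne1 measured 25.9 and 31.6 RPKM after p38-MAPKi and 21.9 and 23.1 RPKM in control, so its groups did not overlap. The difference was 0.35 (SE 0.205, interval -0.06 to 0.75, limma adjusted p = 0.627). Ccne1 was 1 of 10 members with both p38-MAPKi libraries above control, where 26.8% of all genes were, and 3 of 10 (Mcm3, Mcm4 and Cdc6) had both below, against 13.7%.

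After 7 h all 10 members were lower on average in p38-MAPKi, and none was called. The median log2 fold change was -0.21, against -0.14 over all genes, and with each library centred on its median the members' median was -0.02, that of all genes 0.05, and Mcm6, Mcm7, Cdt1, Pcna and Ccne1 changed sign. In limma 0 of 10 were called, against 2.13% of all genes, and 3 of 10 (Mcm2, Mcm3 and Cdc6) had an unadjusted p under 0.05, against 28.4%. Voom called 0 of 10. Both p38-MAPKi libraries lay below both controls for 5 of 10 members, against 38.7% of all genes, and above for 0, against 23.0%. The summed level of the 7 primitive endoderm markers was also lower at this time point (115.8 and 122.5 RPKM against 174.0 to 188.9 RPKM in control), and its part in the members' values was not tested.

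Mcm2, a helicase subunit, had the largest difference at 7 h on the deposited scaling. It measured 42.9 and 42.1 RPKM in control and 26.6 and 34.7 RPKM in p38-MAPKi, and the groups did not overlap. The log2 fold change was -0.48 (SE 0.188, interval -0.91 to -0.06, limma adjusted p = 0.138). The lowest value came from the shallowest library, replicate 1. Without it the difference was -0.29, and without p38-MAPKi replicate 2 it was -0.67, each from a single p38-MAPKi library. The order of the members changed with the processing. Mcm3 (-0.57) and Mcm5 (-0.53) were further below control than Mcm2 (-0.50) with quantile normalization, as was Mcm3 (-0.34 against -0.14) with the trend with transcript length removed, Cdc6 (-0.50 against -0.29) without p38-MAPKi replicate 1, and Mcm3 (-0.56 against -0.47) without control replicate 1. With the length trend removed Cdc6 stood at -0.18 and Mcm5 at -0.21, and Mcm6 changed sign (0.06). With median centring Mcm2 stood at -0.29, Mcm3 at -0.27, Cdc6 at -0.23 and Mcm5 at -0.16.

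Mcm3, a second helicase subunit, measured 56.8 and 65.0 RPKM in control and 39.8 and 48.9 RPKM in p38-MAPKi at 7 h. The difference was -0.46 (SE 0.183, interval -0.88 to -0.05, adjusted p = 0.144), and -0.31 without p38-MAPKi replicate 1. Cdc6, the helicase loader, measured 23.8 and 22.3 RPKM in control and 18.2 and 16.3 RPKM in p38-MAPKi. Its difference was -0.42 (SE 0.177, interval -0.82 to -0.02, adjusted p = 0.162), and -0.50 without replicate 1, so it was as large without the shallow library. In 1 fit over all 12 libraries, which shares the spread of the other groups, Mcm2, Mcm3 and Cdc6 were called (limma adjusted p of 0.0443, 0.0290 and 0.0328). The same fit called 23.6% of all genes. With p38-MAPKi replicate 1 of 7 h left out of that fit, these calls were lost.

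Mcm5 was lower in both p38-MAPKi libraries at 7 h (70.5 and 80.4 RPKM against 91.8 and 100.7 RPKM), with a difference of -0.35 (interval -0.74 to 0.03). Pcna, the clamp, overlapped fully at 57.2 and 52.1 RPKM in p38-MAPKi and 62.9 and 48.2 RPKM in control, with a difference of -0.01 (interval -0.44 to 0.41). Cdt1, whose protein is the loading partner of Cdc6, measured 58.1 and 67.6 RPKM against 66.5 and 74.2 RPKM in control, with a difference of -0.16 (interval -0.56 to 0.23).

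After 10 h the members differed little from control, and their replicates lay closer together (median SD of log2 RPKM 0.0523 in p38-MAPKi at 10 h against 0.144 at 7 h). The same held over all genes with at least 1 RPKM in both replicates (0.0807 against 0.183). The median log2 fold change was -0.04, against -0.02 over all genes. In limma 0 of 10 were called, against 0.803% of all genes, and 1 of 10 (Mcm3) had an unadjusted p under 0.05, against 19.8%. Voom called 0. Both p38-MAPKi libraries lay below control for 4 of 10 members (Mcm3, Mcm4, Mcm5 and Pcna), against 29.6% of all genes, and above for 0, against 22.6%. Mcm3 measured 49.1 and 48.0 RPKM against 58.6 and 53.5 RPKM in control, a difference of -0.21 (SE 0.0709, interval -0.38 to -0.04, adjusted p = 0.182). Mcm2 measured 41.0 and 39.4 RPKM against 41.5 and 39.8 RPKM, a difference of -0.02 (interval -0.17 to 0.14). Cdc6 measured 21.9 and 19.4 RPKM against 20.5 and 20.8 RPKM, a difference of -0.01 (interval -0.21 to 0.20). Pcna measured 48.0 and 48.5 RPKM against 59.5 and 51.1 RPKM, a difference of -0.19 (interval -0.40 to 0.01).

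**Figure D3:**
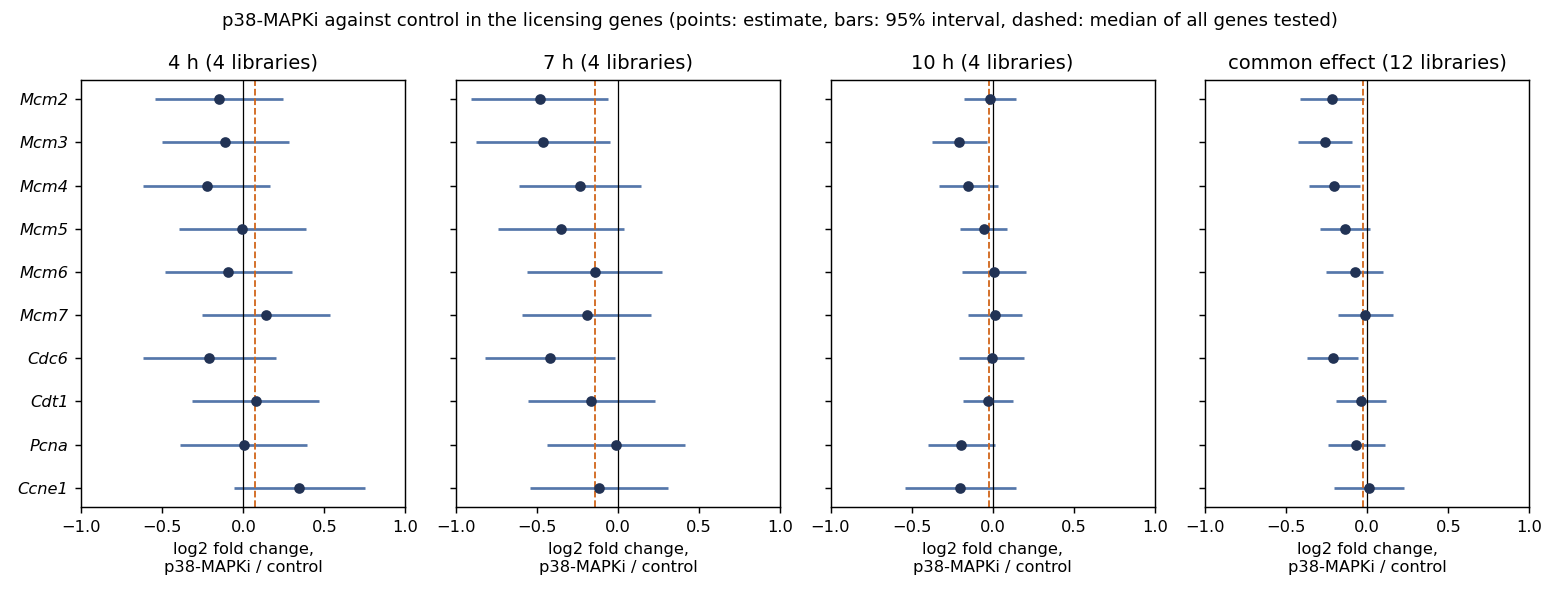
Log2 fold change of p38-MAPKi over control (x) for each licensing gene (y) at 4, 7 and 10 h and as the effect common to the time points. Points are limma estimates, bars 95% intervals and the dashed line the median of all genes tested. The estimates at 7 h reach -0.48 (Mcm2), and those at 10 h lie between -0.21 (Mcm3) and 0.01 (Mcm7).

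Mcm3 and Mcm4 had both p38-MAPKi libraries below both control libraries at all 3 time points, which was the case for 4.29% of all genes tested. Mcm4 measured 66.7 and 55.8 RPKM against 69.7 and 73.0 RPKM in control at 4 h, 66.3 and 60.9 RPKM against 71.7 and 77.8 RPKM at 7 h, and 63.3 and 57.9 RPKM against 69.7 and 64.7 RPKM at 10 h. Mcm3 measured 50.6 and 49.3 RPKM against 51.4 and 56.7 RPKM at 4 h, where the groups nearly met.

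The effect common to the time points, the mean of the 3 differences in a fit over 12 libraries, was negative for 9 of 10 members, with a median of -0.11 against -0.03 over all genes. In limma 0 of 10 were called, against 10.1% of all genes, and 4 of 10 (Mcm2, Mcm3, Mcm4 and Cdc6) had an unadjusted p under 0.05, against 30.8%. Mcm3 came closest, at -0.26 (SE 0.0761, interval -0.43 to -0.09, adjusted p = 0.0510). Cdc6 followed at -0.21 (SE 0.0718, adjusted p = 0.0770), then Mcm4 at -0.20 (SE 0.0723, adjusted p = 0.0892) and Mcm2 at -0.22 (SE 0.0905, adjusted p = 0.133). Ccne1 had a common effect of 0.01 (interval -0.21 to 0.23), and Mcm7 -0.01 (interval -0.18 to 0.16).

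Mcm3 lay beside the threshold, and its call moved with the processing. Its adjusted p in limma was 0.0192 with quantile normalization, where 12.9% of all genes were called, and it reached 0.422 over all alternatives. Voom on the recovered reads called Mcm3 (adjusted p = 0.0366), as it did 15% of all genes. Without p38-MAPKi replicate 1 of 4 h the effect was -0.28 for Mcm2, -0.27 for Mcm3, -0.25 for Mcm4 and -0.23 for Cdc6. Without p38-MAPKi replicate 2 of 7 h it was -0.28 for Mcm2 and -0.31 for Mcm3. Without control replicate 1 of 7 h it was -0.29 for Mcm3. With the 4 libraries of 7 h left out, the effect was -0.16 for Mcm3, -0.19 for Mcm4, -0.11 for Cdc6 and -0.08 for Mcm2, and 0 members were called. Lineage markers moved in the same contrast. Of 9 trophectoderm markers Cdx2 and Gata3 fell (by 0.38 and 0.51), with 5 of the list positive, 4 negative and a median of 0.002. Of 5 tested primitive endoderm markers Dab2 fell (by 0.50), with all 5 negative and a median of -0.31. Of 8 epiblast markers 0 were called, with 7 negative and a median of -0.21. Their part in the members' values was not tested.

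Whether the p38-MAPKi effect itself differed between time points was tested as an interaction. For 7 h minus 4 h, 0 of 10 members were called in limma, against 0.00884% of all genes, and 0 had an unadjusted p under 0.05, against 6.83%. For 10 h minus 7 h the counts were 0, against 0.00877%, and 2 (Mcm2 and Cdc6), against 26.3%. For 10 h minus 4 h they were 0, against 0%, and 1 (Ccne1), against 9.86%. Voom called 0 in each. The effect on Mcm2 was 0.47 higher at 10 h than at 7 h (SE 0.189, interval 0.03 to 0.90, adjusted p = 0.165), and without p38-MAPKi replicate 2 of 7 h this difference was 0.66. That on Cdc6 was 0.41 higher (SE 0.165, interval 0.04 to 0.79, adjusted p = 0.160). That on Ccne1 was lower at 10 h than at 4 h, a difference of -0.54 (SE 0.228, interval -1.05 to -0.04, adjusted p = 0.490).

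Around the members, the other replication and cell cycle genes changed at few single time points. Of 108 such genes in 9 lists, 103 or 104 passed the limit on low values, and limma called 1 at 4 h and 0 at 7 h and 10 h. An unadjusted p under 0.05 was reached by 6, 25 and 16 of them, against 9.42%, 28.4% and 19.8% of all genes. At 7 h the count depended on the fit: voom on the recovered reads called 16 of 104 (15.4%, against 15.4% of all genes), the 12-library fit 23 (22.1%, against 23.6%), and the 12-library fit without p38-MAPKi replicate 1 of 7 h 2 (1.92%, against 4.64%). At 10 h voom called 1, against 4.25% of all genes. Pold4, a small subunit of the replicative DNA polymerase delta, rose at 4 h from 7.97 and 7.28 RPKM in control to 15.1 and 14.2 RPKM (log2 fold change 0.94, SE 0.222, adjusted p = 0.00533). This call was lost under 9 of 16 alternatives, namely without either control library of 4 h, without the trend or the filter, with quantile normalization or median centring, with the length trend removed, in 1 fit over 12 libraries, and with voom. In control blastocysts Cdkn1c, an inhibitor of cyclin-dependent kinases, rose from 3.44 and 3.54 RPKM at 4 h to 9.87 and 5.10 RPKM at 7 h (1.02, SE 0.223, adjusted p = 0.00258) and 7.99 and 6.34 RPKM at 10 h (1.03, SE 0.171, adjusted p = 0.0252). Both rises were lost without the trend or the filter, with quantile normalization or median centring, with the length trend removed, in 1 fit over 12 libraries, and without control replicate 1 of 4 h or of the later time point, and with a limit of 10 RPKM Cdkn1c was not tested. The rise to 7 h was also lost with the replicate block, with voom and without control replicate 2 of 4 h. The rise to 7 h was thus kept under 4 of 16 alternatives and that to 10 h under 7.

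The origin recognition complex, the landing site of the loaders, had 0 of 6 genes called in the common effect, with a median of -0.003. Orc1 measured 9.18 and 14.3 RPKM after 7 h of p38-MAPKi and 10.5 and 11.4 RPKM in control. Gmnn, the inhibitor that binds Cdt1, measured 101.9 and 107.0 RPKM against 96.2 and 81.1 RPKM in control at 7 h, and 73.6 and 71.7 RPKM against 87.7 and 82.9 RPKM at 10 h. It was called at no time point. Cdc45, which joins the loaded helicase to make it active, measured 14.5 and 25.2 RPKM after 7 h of p38-MAPKi and 26.8 and 27.7 RPKM in control (log2 fold change -0.51, SE 0.253, adjusted p = 0.222). Ccne2, the other cyclin E gene, was expressed at 2.71 to 4.28 RPKM and was not called.

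In the common effect 17 of 104 tested genes of these lists were called, 3 higher and 14 lower, against 10.1% of all genes. Cdk2, the kinase partner of cyclin E, fell by 0.43 on the log2 scale (SE 0.0933, limma adjusted p = 0.0197), from 26.5 and 21.1 RPKM in control to 12.2 and 14.2 RPKM at 7 h. It measured 19.1 and 15.2 RPKM against 19.6 and 23.2 RPKM in control at 4 h, and 25.1 and 24.8 RPKM against 26.2 and 27.4 RPKM at 10 h. Skp2, a ubiquitin ligase subunit that acts on Cdt1, fell by 0.52 (SE 0.12, adjusted p = 0.0245), with Cul4b and Fbxo5 also lower. Cdkn1a, the cyclin-dependent kinase inhibitor p21, rose by 0.35 (SE 0.0689, adjusted p = 0.0134), from 62.6 and 70.5 RPKM in control to 93.9 and 98.9 RPKM at 4 h. It measured 117.7 and 106.4 RPKM against 88.5 and 83.7 RPKM in control at 7 h, and 83.7 and 89.0 RPKM against 82.6 and 74.0 RPKM at 10 h. Cdk1, the mitotic kinase, fell by 0.34 (SE 0.0822, adjusted p = 0.0285).

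Among replisome accessory genes 3 of 18 fell, namely Clspn, a checkpoint mediator, by 0.44, Atad5, which unloads Pcna, by 0.44, and Wdhd1 by 0.35. Of 12 mitotic genes 5 fell (Mki67, Top2a, Bub1b, Cenpf and Kif11), of the E2F and RB family E2f8 fell and E2f2 rose, and Pole3 rose among 12 polymerase genes. The rise of Pole3 is a mean of unlike effects, 0.38 at 4 h, 0.71 at 7 h and -0.16 at 10 h. No gene of deoxynucleotide synthesis (8 tested) or of the other MCM family and its binding partners (4 tested) was called. These counts rested on particular libraries. Without p38-MAPKi replicate 2 of 7 h 27 of 104 were called (against 22.8% of all genes), and without p38-MAPKi replicate 1 of 7 h 8 were (against 7.60%). Without replicate 1 of 10 h, in control or in p38-MAPKi, 1 was, against 3.06% and 3.73% of all genes. Without control replicate 2 or p38-MAPKi replicate 2 of 10 h 0 were, against 1.94% and 1.92%, and with 7 h left out 0 were, against 0.257%.

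**Figure D4:**
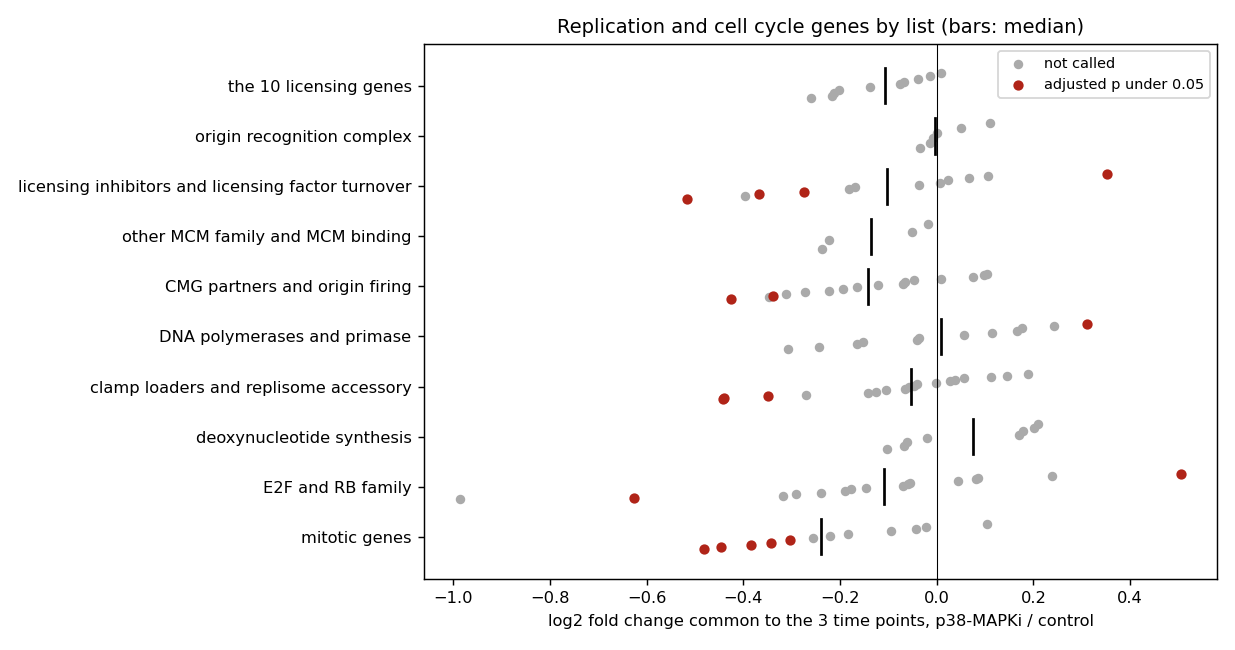
Log2 fold change common to the 3 time points (x) of each tested gene, by list (y). Red points passed an adjusted p of 0.05, grey points did not, and bars are list medians. The licensing genes have 0 red points and a median of -0.11, and the mitotic genes 5 red points and a median of -0.24.

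The members lie apart in the genome (GRCm38), with Mcm3 and Mcm6 on chromosome 1, Pcna on 2, Mcm7 on 5, Mcm2 on 6, Ccne1 on 7, Mcm5 and Cdt1 on 8, Cdc6 on 11 and Mcm4 on 16. Some could share reads with other genes. Mcm7 (chr5:138164583-138172422, GRCm38, minus strand) overlaps Cops6 and Ap4m1 on the opposite strand, and Cdt1 (chr8:122568015-122573554, plus strand) lies within the read-through gene Gm20388. How strand was handled in counting is not given in the sources used here, and the values of both genes are less certain for it. Pcna has a processed pseudogene, Pcna-ps2, which reached at most 2.69 RPKM.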

How the data were processed

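The authors trimmed 50 bp single-end reads with Trim Galore 0.4.1, mapped them to GRCm38 with HISAT2 2.0.5 and counted them per gene in SeqMonk. They deposited log2 RPKM for 34245 genes, with replicates apart. The strand option and the treatment of multi-mapping reads are not given in the sources used here. RPKM is relative to each library's total and no spike-in was used. Whole reads were recovered for 34244 genes (tolerance 0.03 of a read), since a gene without a read holds 0.9 of a read.

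Comparisons used limma 3.58.1 (lmFit, eBayes with trend) in R 4.3.3 on the deposited log2 values. Genes with at least 1 RPKM in 2 libraries of a fit were tested, with Benjamini-Hochberg adjustment over all of them and a threshold of 0.05. With 2 pools against 2 an exact permutation test cannot go below p = 0.333. Genes named are the 10 members, called genes of the other lists, Orc1, Gmnn, Ccne2, Cdc45, Cdk2 and Cdkn1a, the 5 genes most alike in profile, and called lineage markers. Sox7, Foxa2, Hbb-bt and Hba-a1 were named after their values were seen. The members and lists were chosen with earlier results of these data known. The fits were also run on simulated data, with planted changes larger than the differences of the members and noise drawn independently for each library. The outcome is not given here and says nothing about changes as small as those of the members.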

Additional observations from a re-analysis of the deposited data

Results flagged for a closer look

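Among 33 named genes, 3 of 99 comparisons of time points had both p38-MAPKi libraries above both controls at one time point and below both at another. The share of all genes with such a reversal was not computed, so this count has no background to be read against. Some of the named genes, Pole3 among them, were named because they were called in these same data. Gmnn, the Cdt1 inhibitor, was 0.24 above control at 7 h and had a difference of -0.23 at 10 h, and the change between them was -0.47 (SE 0.157, limma adjusted p = 0.117). Pole3, a polymerase epsilon subunit, was 0.71 above control at 7 h and -0.16 at 10 h, a change of -0.87 (SE 0.188, adjusted p = 0.0710). Pole3 was 0.38 above control at 4 h, and its change to 10 h was -0.54 (adjusted p = 0.452). The differences were tested and did not pass the adjustment.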

How the results depend on the processing

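In the comparisons at 4 h and 10 h, between control time points, and of 7 h or 10 h against the effect at 4 h, 0 members were called under every alternative run. At 7 h, 3 members were called in 1 fit over 12 libraries, against 23.6% of all genes. For the common effect 2 members were called with quantile normalization, against 12.9% of all genes. There was 1 each with at least 10 RPKM (against 19%), the length trend removed (9.97%) or voom on recovered reads (15%). At an adjusted p under 0.1 there were 3, against 20.4%. Calls in these 2 comparisons, and for the effect at 10 h minus that at 7 h, also changed when single libraries were left out.

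The listed replication and cell cycle genes called in the common effect numbered 17 of 104 (16.3%, against 10.1% of all genes). There were 5 of 104 without the trend (4.81%, against 4.98%) and 1 of 108 without the filter (0.926%, against 0.485%). With at least 10 RPKM 11 of 74 were called (14.9%, against 19%), and with the length trend removed 12 of 104 (11.5%, against 9.97%). Median centring gave 16 (15.4%, against 11.8%), quantile normalization 17 (16.3%, against 12.9%) and voom 19 (18.3%, against 15%). Without the libraries of 7 h, an alternative chosen after seeing the data, 0 were called, against 0.257%. With single libraries left out the count was 0 to 27.

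The members' median log2 fold change moved mostly with the scaling. With median centring it was -0.018 at 7 h, -0.016 for control 7 h against 4 h, -0.14 for control 10 h against 4 h, and -0.068 and -0.017 for the effect at 7 h minus 4 h and 10 h minus 7 h. With quantile normalization it was -0.21 at 4 h, -0.33 at 7 h, 0.013 for control 7 h against 4 h, and 0.35 and 0.14 for the effect at 10 h minus 7 h and minus 4 h. With the length trend removed it was -0.033 and -0.17 for control 7 h and 10 h against 4 h, and -0.041, 0.063 and 0.033 for the differences of effects (7 h minus 4 h, 10 h minus 7 h, 10 h minus 4 h). Leaving out single libraries gave -0.15 to 0.013 at 4 h, 0.011 to 0.17 for control 7 h against 4 h, and -0.37 to -0.17, 0.12 to 0.30 and -0.17 to 0.042 for the same differences. The cause of these shifts was not tested.

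Replicate numbers pair nothing in the labels, and deviations of same-numbered libraries correlated at -0.01, 0.16 and 0.17 at 4, 7 and 10 h. With the replicate number as a block 0 members were called in any comparison, and the listed genes numbered 17 at 7 h and 12 in the common effect, against 18.5% and 8.03% of all genes. Groups of 2 pools, unequal depth and relative values limit what could be detected. Over all genes, calls at 7 h ran from 0 without the trend to 2919 without p38-MAPKi replicate 2, and in the common effect from 29 without 7 h to 2619 without the same library.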
